A study of Mus musculus with 2 samples.

Results

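Dividing mesenchymal cells were compared between a library from an irradiated injury site and a library from a control injury site in a mouse model of traumatic heterotopic ossification, in which bone forms in soft tissue after injury. The cells were chosen by their own transcript levels. A barcode needed at least 500 genes, at least 1000 unique molecular identifiers (UMIs, each counting 1 captured mRNA molecule) and at most 10% mitochondrial UMIs. Its summed Col1a1, Col1a2 and Col3a1 had to reach 50 CP10K (UMIs per 10000 of the cell's UMIs), with at most 1 UMI of the leukocyte gene Ptprc, less than 10 CP10K of the keratinocyte genes Krt5 and Krt14 and less than 1 CP10K of the pericyte gene Rgs5. The last condition was at least 2 CP10K of Top2a and Mki67 together. The rule found 28 cells in the irradiated library and 260 in the control library, 288 in all. They belonged to 558 and 2299 mesenchymal cells in the irradiated and the control library, which met the same rule without Top2a and Mki67, and to 8302 and 11369 deposited barcodes.

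Both libraries held unsorted cells of male C57BL/6J mice aged 8 to 10 weeks with a dorsal burn over 30% of the body surface and transection of the left Achilles tendon, and both sites were taken on day 7 after injury. The irradiated mice had also been given 7 Gy once, with the beam limited by a 2 cm collimator, on postoperative day 1 or 3 in the labels' arms of 10 mice, and the wording of the series leaves uncertain which day this library stands for. The control mice had the same burn and tendon cut without radiation. How many mice went into a library is unknown, and with 1 library per group, treatment, mice and library cannot be told apart. For the same reason no difference below has a test, and the 95% intervals cover counting error only.

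Cells commit to division in G1, copy their DNA in S phase and separate the chromosomes in mitosis, and each step has its own transcripts. E2F factors drive the genes of DNA replication, while genes of late G2 and mitosis are switched on later, through promoter elements that include the CCAAT box and the cell cycle genes homology region (CHR). Ionizing radiation breaks DNA and activates p53, whose target Cdkn1a encodes p21, an inhibitor of cyclin-dependent kinases that holds cells out of S phase and mitosis. Type I interferons act on most cells through STAT and IRF factors, which bind the interferon-stimulated response element (ISRE). In the healing tendon, mesenchymal cells divide, deposit matrix and can enter cartilage and bone fates.

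The marker genes matched the name. Top2a, the topoisomerase that untangles replicated DNA, had a median of 4.47 CP10K over the 28 irradiated cells and 3.93 over the 260 control cells, and Mki67, which coats mitotic chromosomes, had 2.12 and 1.88. Because these genes chose the cells, their values are descriptions. Of the 28 irradiated cells 4 held under 3 UMIs of Top2a and Mki67 together, 2 of them only 1 UMI. The lowest Top2a and Mki67 sums inside the rule were 2.34, 3.32 and 3.37 CP10K in the irradiated library and 2.04, 2.04 and 2.05 in the control library, and the highest sums outside it were 1.66, 1.59 and 1.49 against 1.95, 1.94 and 1.91. Between 2 and 2.5 CP10K lay 1 irradiated cell and 20 control cells. The collagen sum, which also chose the cells, had medians of 391 and 360 CP10K. Pdgfra, the PDGF receptor of fibroblasts, had a UMI in 25 of 28 irradiated and 223 of 260 control cells.

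The libraries held 111753092 UMIs in the irradiated and 180080740 in the control sample. Dividing cells were deep, with a median of 54082 UMIs per irradiated cell (1737 to 93543) and 35907 per control cell (1197 to 90656), against 23296 and 24814 in the other mesenchymal cells. Mitochondrial UMIs had medians of 2.31% and 3.85%. The 2 libraries shared 32 barcodes, and no member was among them. Transcripts of other cell types were present beside all results below. The macrophage list of 10 genes summed to 376 CPM (UMIs summed over the cells and divided by their total in units of 1000000) in irradiated and 116 in control dividing cells, with no gene at 0, a range per cell of 0 to 45.2 CP10K and of 0 to 39.7, and 3 irradiated and 5 control cells at or above 5 CP10K of Lyz2, Tyrobp and Fcer1g. The keratinocyte list of 10 genes summed to 99.9 against 1035 CPM, with medians per cell of 1.11 and 3.18 CP10K. Among irradiated dividing cells Cd3e, Cd3d, Cd3g, Nkg7, Kdr, Cldn5, Sox10 and Pax7 were at 0, and Ly6g, Klrb1c, Ccr7, Myog, Adipoq and Dcstamp were at 0 in both libraries. A stricter rule, without Ptprc or Rgs5 UMIs and with lower limits on myeloid, keratinocyte and endothelial genes, left 17 irradiated and 159 control cells. Its values are given below for the lists and genes whose calls it changed most, and beyond it the part of other cell types' RNA in the results was not tested. No irradiated and 3 control dividing cells had a Scrublet doublet score of at least 0.25.

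Fewer irradiated mesenchymal cells carried proliferation transcripts. Dividing cells made up 28 of 558 irradiated mesenchymal cells, or 5.02% (Clopper-Pearson 95% interval 3.36 to 7.17), and 260 of 2299 control cells, or 11.3% (10.0 to 12.7). The log2 ratio of the shares was −1.17 (−1.72 to −0.63). Mesenchymal cells themselves were 7.76% and 24.9% of the barcodes past the quality limits, so that dividing mesenchymal cells were 0.389% and 2.81% of them. The lower share was thus seen within the mesenchymal cells and not only in their number.

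The irradiated share was also the lower one at equal depth. With each cell thinned to 5000 UMIs, at least 2 UMIs of Top2a and Mki67 were found in 4.83% of 497 irradiated and 9.36% of 2191 control mesenchymal cells. At 5 or more UMIs of other mitosis genes, these shares were 13.5% and 28.3%. With thinning to 2000 UMIs, a depth that left out 20 irradiated and 51 control cells, the shares with at least 2 UMIs were 2.04% (11 of 538) and 3.69% (83 of 2248), with a log2 ratio of −0.85 whose interval reached 0.04. Keratinocytes at that depth had 7.4% and 11.9%, pericytes 2.62% and 5.81%, and endothelial cells 1.41% and 2.76%, so the irradiated share was the lower one in each of these classes. Neutrophils, which do not divide, gave the background at 0.122% (1 of 819) and 0.836% (3 of 359). On the rule's own scale 1.21% of irradiated neutrophils (median 3298 UMIs) and 3.93% of control neutrophils (median 2179 UMIs) reached 2 CP10K, below the mesenchymal shares in both libraries. This background was thus also lower in the irradiated library, with a log2 ratio of −1.70 (−2.72 to −0.69). At 2000 UMIs any Top2a or Mki67 UMI was seen in 1.22% and 5.01% of neutrophils (log2 −2.04, −3.14 to −0.94). The part of such background in the mesenchymal difference was not tested.

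**Figure D1:**
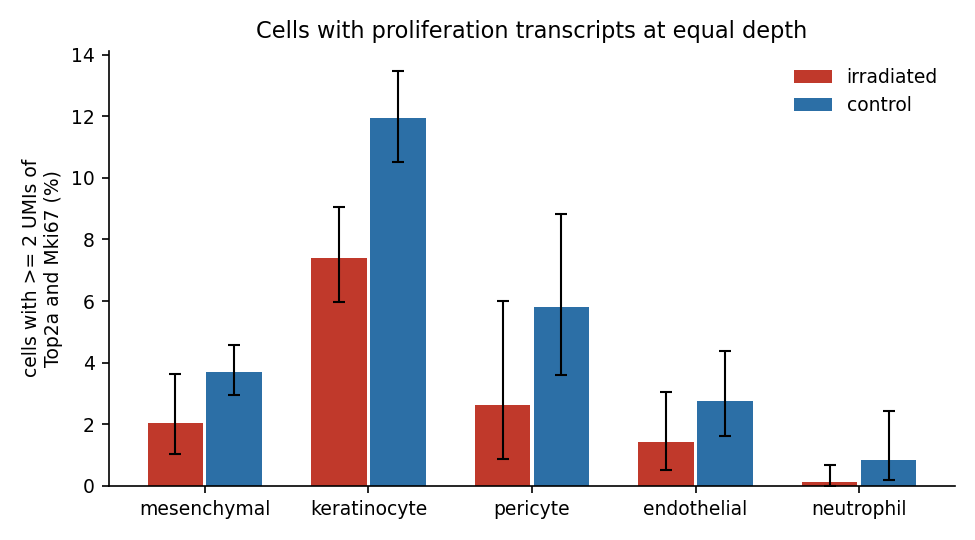
Percent of cells with at least 2 UMIs of Top2a and Mki67 after thinning each cell to 2000 UMIs, by cell class, with irradiated bars left of control bars and 95% Clopper-Pearson intervals from counting alone. The irradiated bar is lower in each class, with 2.04% and 3.69% in mesenchymal cells.

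The state of the cells differed between the libraries as well. Adventitial and fascial progenitors are marked by Pi16 and Clec3b, and cells with at least 2 CP10K of these made up 47.2% of the other mesenchymal cells in the irradiated library and 13.1% in the control library. Few of them divided: 3 of 253 irradiated cells (1.19%, 0.245 to 3.43) and 15 of 283 control cells (5.30%, 3.00 to 8.59). Outside that range the dividing shares were 8.20% (25 of 305) and 12.2% (245 of 2016), with a log2 ratio of −0.57 (−1.14 to −0.00). Inside the range the log2 ratio was −2.16 (−3.93 to −0.39). The difference was thus smaller than the pooled −1.17 outside the Pi16 and Clec3b range and larger inside it. Both intervals overlap the pooled one of −1.72 to −0.63.

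Cells with at least 20 CP10K of Acta2 and Tagln, genes of contractile myofibroblasts, were instead scarcer in the irradiated library. They were 4 of 28 irradiated dividing cells (14.3%) and 85 of 260 control dividing cells (32.7%), and 7.36% and 19.5% of the other mesenchymal cells. In both libraries the dividing share was higher inside this range, at 9.30% (4 of 43) and 17.6% (85 of 482), than outside it, at 4.66% and 9.63%. Cells with at least 2 CP10K of Pdzrn4 and Ptx3 divided at 5.42% (9 of 166) and 10.1% (110 of 1085), and cells with the tendon genes Tnmd and Kera at 5.22% (6 of 115) and 9.94% (46 of 463). The irradiated share was the lower one inside each of the 4 ranges, from few irradiated dividing cells. The log2 ratio was −0.92 (−2.30 to 0.45) for Acta2 and Tagln and −0.90 (−1.85 to 0.05) for Pdzrn4 and Ptx3. For Tnmd and Kera it was −0.93 (−2.12 to 0.26), so these intervals all reached past 0. When the combinations of ranges were given the same weights in both libraries, the shares became 7.63% and 10.9%, and the log2 ratio moved to −0.51.

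**Figure D2:**
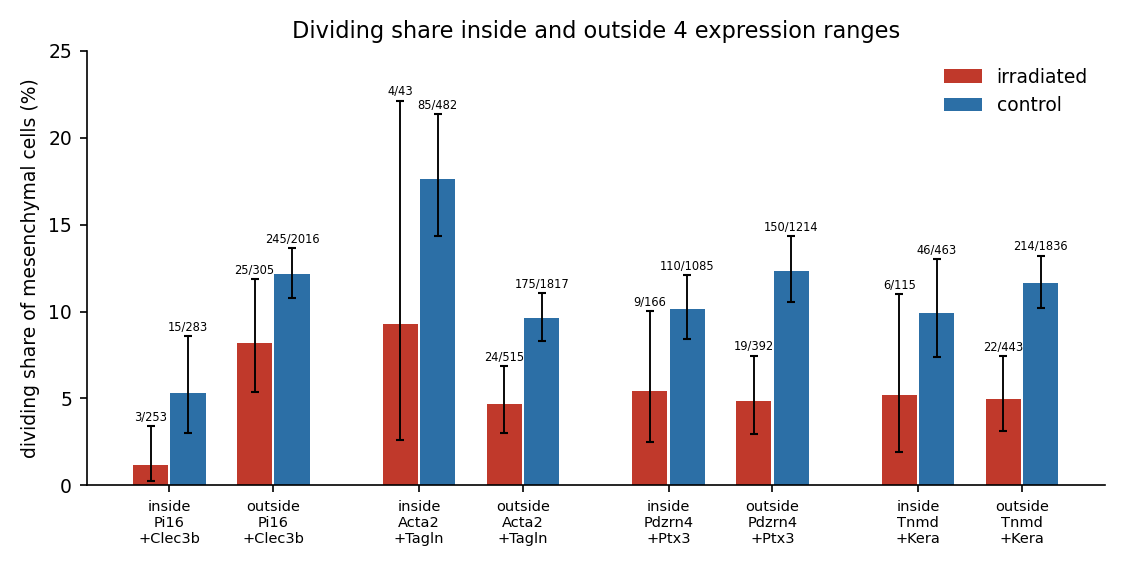
Dividing share of mesenchymal cells inside and outside 4 expression ranges, irradiated bars left of control bars, with 95% Clopper-Pearson intervals from counting alone and the cells behind each bar. Inside the Pi16 and Clec3b range 3 of 253 irradiated and 15 of 283 control cells were dividing.

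Gene levels were compared on UMIs summed over the dividing cells of each library. Of 6828 genes with a mean of at least 20 CPM, 404 (5.92%) were at least 1.5-fold higher in irradiated dividing cells and 496 (7.26%) at least 1.5-fold lower, against a median log2 ratio over all measured genes of −0.02. The 1.5-fold limit is a rule of size. Because the minimum is on the mean of both libraries, a gene that is high in 1 of them can pass through it alone, so counts of measured list members are descriptions and leave out the members below the minimum. A gene is called higher or lower below only past that limit, and irradiated sums rest on 1410880 UMIs against 9436937 in the control. Under the stricter rule 474 of 6797 measured genes were higher and 591 lower, and list counts under that rule are to be read beside these.

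Promoters of 3 cycle genes are shown as examples of the elements known from mitosis and replication genes. Sequences are RefSeq's on GRCm38.p6, from 250 bases before to 50 after the start of the gene and written on the gene's strand. In the promoters of Top2a (chr11:99024140-99024439, minus strand) and Cenpf (chr1:189688037-189688336, minus strand), capitals mark the CHR, TTTGAA, and the CCAAT box, CCAAT, on either strand. In that of Mcm3 (chr1:20820263-20820562, minus strand) capitals mark only E2F sites, TTTCCCGC or TTTGGCGC, on either strand.
Top2a: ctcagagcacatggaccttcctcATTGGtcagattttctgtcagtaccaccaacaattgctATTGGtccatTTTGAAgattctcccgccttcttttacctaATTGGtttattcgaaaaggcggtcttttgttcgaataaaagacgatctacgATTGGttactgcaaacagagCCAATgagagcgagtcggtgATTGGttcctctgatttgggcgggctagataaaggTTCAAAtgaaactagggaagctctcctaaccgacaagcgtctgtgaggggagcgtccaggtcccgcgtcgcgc
Cenpf: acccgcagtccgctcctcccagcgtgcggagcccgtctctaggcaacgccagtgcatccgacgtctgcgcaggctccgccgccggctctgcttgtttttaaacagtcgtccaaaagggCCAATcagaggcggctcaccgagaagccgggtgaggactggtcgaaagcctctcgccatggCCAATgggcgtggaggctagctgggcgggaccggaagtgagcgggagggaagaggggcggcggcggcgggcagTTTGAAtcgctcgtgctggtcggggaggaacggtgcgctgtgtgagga
Mcm3: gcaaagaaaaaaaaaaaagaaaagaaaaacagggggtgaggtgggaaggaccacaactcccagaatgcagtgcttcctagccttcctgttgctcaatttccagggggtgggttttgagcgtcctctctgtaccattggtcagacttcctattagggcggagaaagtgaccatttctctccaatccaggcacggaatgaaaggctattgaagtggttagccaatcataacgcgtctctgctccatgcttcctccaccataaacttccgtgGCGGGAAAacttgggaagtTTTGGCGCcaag
The Top2a window held 2 CHR and 6 CCAAT matches, that of Cenpf 1 and 2, and that of Mcm3 had 2 E2F matches. A CHR was found in 25 of 32 promoters of the spindle list (78.1%) and in 10 of 21 of the mitotic kinase list (47.6%), against 17.9% of all 32851 promoters. An E2F site was found in 11 of 30 replication promoters (36.7%) and in 1.56% of all. The CCAAT box did not set the lists apart in this way, with 65.6% of spindle, 76.2% of mitotic kinase, 60% of replication and 37.4% of all promoters. The Ccnb1 window held no CHR match, and the Mcm2 window no E2F match. These matches are letters in a window and do not show binding.

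Mitosis genes had similar levels in irradiated and control dividing cells, and few passed the limit. Of 26 measured mitotic kinase and cyclin genes 2 were higher and none lower, with a median log2 ratio of 0.20, and of 32 spindle and kinetochore genes 3 were higher and none lower, with a median of 0.26. These shares are near the 5.92% of all genes that were higher. Ccnb1, the cyclin that drives entry into mitosis, had 152 CPM in irradiated and 98.4 CPM in control cells, a log2 ratio of 0.62 (0.40 to 0.84). It had UMIs in 22 of 28 and 190 of 260 cells, so it was widespread in both libraries. Aurka, the kinase of the spindle poles, had 70.9 against 42.9 CPM (0.72, 0.39 to 1.04). Plk1, which acts at several steps of mitosis, had 71.6 and 49.8 CPM (0.52) and Cdk1, the partner of cyclin B, 329 and 301 CPM (0.13), both short of 1.5-fold. Cenpf, a kinetochore protein, had 263 against 168 CPM (0.65, 0.48 to 0.81). Ckap2 (0.66) and Kif20b (0.62), which act on spindle microtubules and in cytokinesis, were the other higher spindle genes. Under the stricter rule none of 25 mitotic kinase genes was higher and 1 was lower, none of 32 spindle genes passed the limit, and the list medians were 0.05 and 0.01. Ccnb1 then had a log2 ratio of 0.25, Aurka −0.13 and Cenpf 0.38.

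In the other mesenchymal cells, which hold few such transcripts, the same lists had medians of −0.47 and −0.40, with 10 mitotic kinase and 12 spindle genes lower. Of the same 6828 genes 5.32% were lower in these cells. The mitosis lists were thus lower among the irradiated cells outside the rule and not within it, where Top2a and Mki67 had set the entry.

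Replication genes differed little. None of 22 measured genes was higher and 2 were lower, a share near the 7.26% of all genes, with a median of −0.25. With the cells thinned to 5000 UMIs, 2 of 26 were higher and 7 lower, and the median was 0.084. Of all 6803 genes measured at that setting 1217 were higher and 1381 lower, so far more genes passed the limit there. Mcm2 and Mcm3, subunits of the helicase that opens DNA for copying, had 24.8 against 42.7 CPM (−0.78, −1.33 to −0.28) and 35.4 against 57.1 CPM (−0.69, −1.14 to −0.27). The ligase Lig1 (−0.45) and the polymerase subunit Pola1 (−0.43) stayed short of the limit. Pcna, the sliding clamp, was nearly equal at 173 and 184 CPM, and none of 13 genes of nucleotide supply passed the limit, with Tyms at 0.26 and Tk1 at 0.36. Summed per cell, the replication list had a median of 11.6 CP10K in irradiated and 15 in control dividing cells, and the spindle list 29.9 and 27.0. Under the stricter rule the replication median was −0.02 and Mcm3 had a log2 ratio of −0.37.

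Thinned to 5000 UMIs, irradiated dividing cells had a median of 13 replication UMIs and 35 mitosis UMIs, and control dividing cells 14 and 26, without Top2a and Mki67. Cells with more replication than mitosis UMIs were 3 of 25 irradiated (12%, 2.55 to 31.2) and 57 of 257 control cells (22.2%, 17.3 to 27.8). With so few irradiated cells the log2 ratio of −0.89 had an interval of −2.45 to 0.68, a difference not detectable at this number of cells. Within 2 UMIs of equality lay 2 irradiated and 29 control cells. Under the stricter rule, which left 17 irradiated dividing cells before thinning, the order turned round, at 26.7% and 21.5%. These ranges are scores and not cell types.

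**Figure D3:**
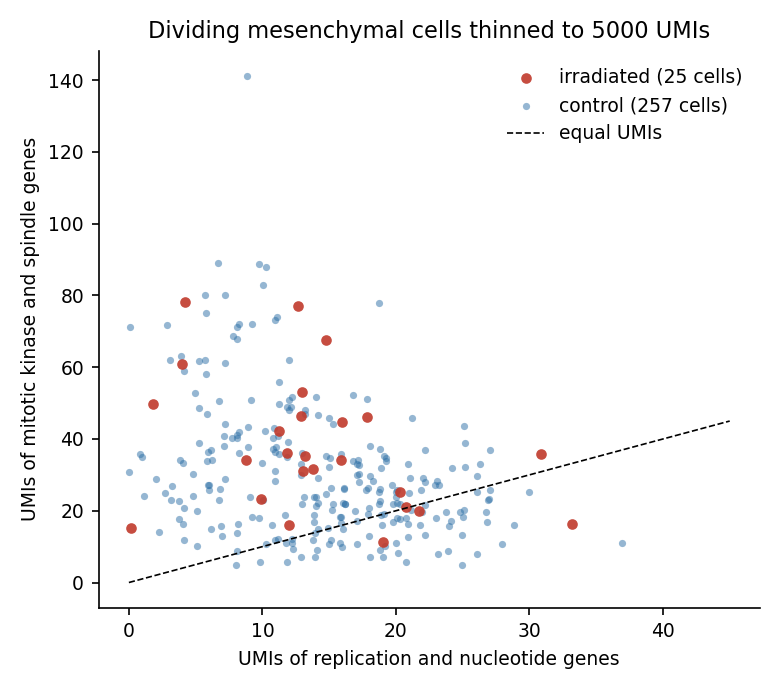
UMIs of replication and nucleotide genes (horizontal) against UMIs of mitotic kinase and spindle genes (vertical) in each dividing mesenchymal cell thinned to 5000 UMIs, 25 irradiated and 257 control cells, with points jittered. Cells below the dashed line of equal UMIs lean to replication, 3 irradiated and 57 control.

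Genes that set the pace of G1 were little different, since none of 18 measured passed 1.5-fold and their median was −0.04. Ccnd1, the cyclin that answers growth signals, had 39.7 against 40.8 CPM in dividing cells. In the other mesenchymal cells it had 69.1 against 23.6 CPM (log2 1.55). Of 21 measured genes of chromosome structure only the condensin subunit Ncaph was lower (21.3 and 32.0 CPM, −0.59), and the list median was 0.04. Among 10 histone genes Hist1h2bc was higher, 97.1 against 47.6 CPM (1.03), a gene whose reads may be shared with near-identical histone copies.

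Cdkn1a was the most different of the kinase inhibitors. It had 152 CPM in irradiated and 35 CPM in control dividing cells, a log2 ratio of 2.12 (1.86 to 2.37). Per cell the irradiated values had quartiles of 0.117, 0.617 and 2.52 CP10K with a highest of 8.86, while the control median was 0, the upper quartile 0.472 and the highest 8.35. The ranges overlapped, and 7 of 28 irradiated dividing cells had no Cdkn1a UMI. After thinning to 5000 UMIs a Cdkn1a UMI was seen in 44.0% (11 of 25) and 17.1% (44 of 257). The largest irradiated cell held 60 of 214 UMIs, and the log2 ratio was 1.26 under the stricter rule.

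In the other mesenchymal cells Cdkn1a was further apart, at 345 against 39.4 CPM (3.13), with a UMI after thinning in 58.3% and 12.8%. Within the irradiated library dividing cells thus had less Cdkn1a than the other mesenchymal cells (log2 −1.18), while within the control library the levels were near each other (−0.17). Mitosis-leaning dividing cells, those without more replication than mitosis UMIs, had 158 CPM in the irradiated and 34.1 CPM in the control library. A Cdkn1a UMI was found in 77.3% and 47.5% of them. This range is a score and held 22 of the irradiated cells, so it does not show Cdkn1a in cells in mitosis. Of the other inhibitors Cdkn2d, which encodes p19 and binds CDK4 and CDK6, was higher (128 and 85.2 CPM, 0.59), whereas Cdkn1b (45.4 and 47.9 CPM) and Cdkn1c (31.2 and 39.9 CPM) were not past the limit. Under the stricter rule Cdkn2d had 0.31 and Cdkn1c −0.77.

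The wider p53 list differed far less than Cdkn1a in dividing cells, and less there than in the other mesenchymal cells. Leaving out, for each gene, the cell with most of its UMIs in each library gave 5 higher, 3 lower and a median of 0.17. Of all 6828 genes 232 were then higher and 883 lower. Of 16 measured genes 6 were higher and 1 lower, with a median of 0.31, against 9 higher and a median of 0.89 in the other mesenchymal cells, where 4.96% of the same 6828 genes were higher. Mdm2, the ligase that degrades p53, had 78.0 against 44.6 CPM (0.81, 0.49 to 1.11). After thinning of the cells its ratio was −0.34, at a depth where 5 of 25 irradiated and 47 of 257 control dividing cells showed a UMI. Phlda3, an inhibitor of Akt, and the exonuclease gene Aen had log2 ratios of 0.86 and 0.84. Gtse1, a G2 and S phase gene that restrains p53, had 30.5 against 14.4 CPM (1.08). Gdf15, a stress cytokine, had 38.3 against 2.23 CPM, but 35 of its 54 irradiated UMIs lay in 1 cell. Ccng1, Zmat3 and Bax were at 0.39, −0.27 and 0.23 in dividing cells and at 1.58, 1.39 and 0.72 in the other mesenchymal cells. Perp, a desmosome gene also made by keratinocytes, was lower, 4.96 against 44.7 CPM, and 77 of its 422 control UMIs lay in 1 cell. Summed per cell the list had medians of 7.91 and 7.51 CP10K in dividing cells and 14.9 and 7.88 in the other cells. Under the stricter rule 4 of 12 measured genes were higher, with a median of 0.22, and Mdm2 had 0.42 and Gtse1 0.46.

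Of 11 measured genes of double-strand break repair only Brca2, which acts in homologous recombination, passed the limit. It had 12.8 CPM in irradiated and 30.9 CPM in control cells (−1.28, −2.05 to −0.59), from 18 irradiated UMIs in 13 cells. After thinning, which left few UMIs of genes at such levels, it had −0.18. Of 10 checkpoint genes Ppm1d, the phosphatase that ends p53 signalling, was higher (32.6 and 21.6 CPM, 0.59; 0.48 under the stricter rule). Of 11 cell death genes Birc3 was higher (0.71) and Birc2 lower (−0.71), both inhibitors of apoptosis, with Birc3 at −1.47 after thinning, again on few UMIs. Of all 6828 genes 5.92% were higher and 7.26% lower. The repair, checkpoint and cell death counts are near those shares and are no result about these lists. Among 15 immediate early and stress genes the chaperone genes Hspa1a (34.7 and 95.9 CPM, −1.47) and Hspa1b (−1.09) and the stress factor Atf3 (−0.74) were lower and the phosphatase gene Dusp1 higher (0.82).

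**Figure D4:**
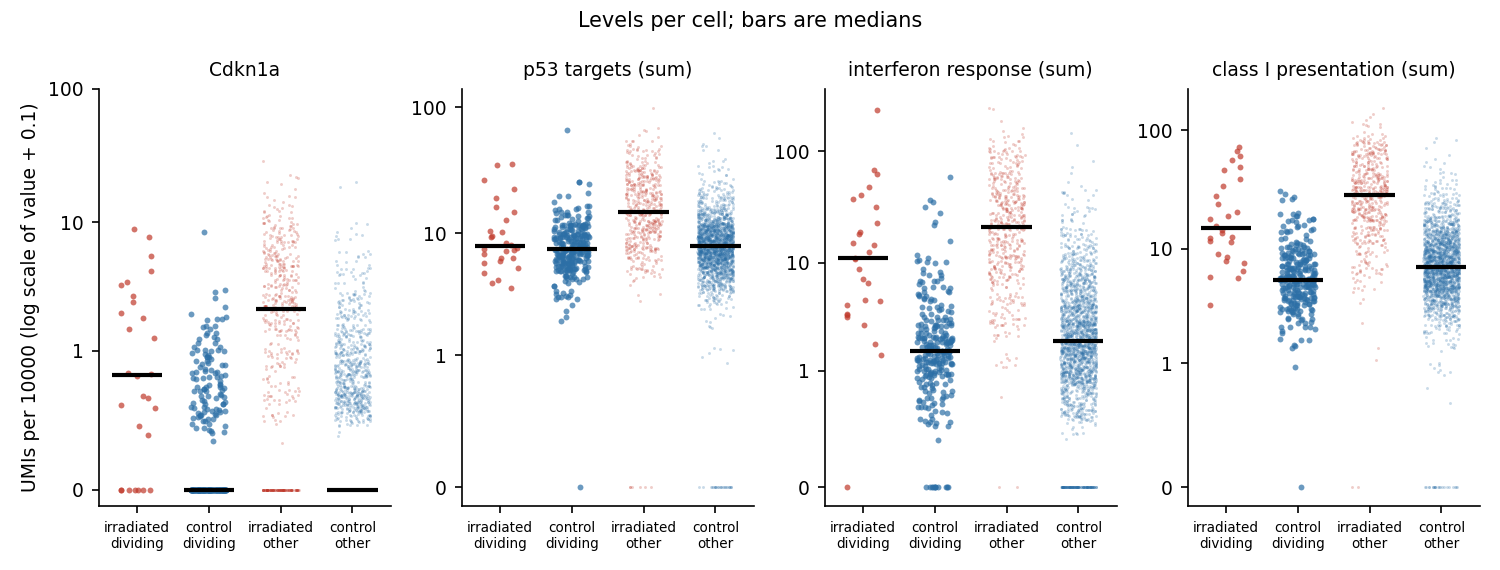
Levels per cell in UMIs per 10000 on a log axis (value + 0.1) for Cdkn1a and for the summed p53, interferon and class I lists, in irradiated and control dividing cells and then in irradiated and control other mesenchymal cells, with bars at the medians. The interferon list had medians of 11 CP10K in irradiated and 1.56 in control dividing cells, with overlapping ranges.

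Interferon response genes had the largest median ratio of the lists, apart from those of other cell types. Of 27 members in the files 14 were measured, and 13 of these were higher in irradiated dividing cells and none lower, with a median log2 ratio of 2.92. The 13 members below the expression minimum each had a log2 ratio of 1.06 or more. Without a minimum the median was 2.46. All 14 were higher in the other mesenchymal cells (median 3.13) and in dividing keratinocytes (median 2.28), where 2.59% of the same 6828 genes were higher. The list summed per cell to quartiles of 3.98, 11 and 25 CP10K in irradiated dividing cells (0 to 237) and 0.912, 1.56 and 2.72 in control dividing cells (0 to 58.8). The upper control quartile lay below the lower irradiated one, although the ranges overlapped. Under the stricter rule 15 of 16 measured genes were higher, with a median of 3.09. That rule kept the only dividing cell with Ifnb1, which is described below.

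The genes include effectors, tags and regulators. Bst2, the surface tether of budding virus, had 558 against 47.6 CPM (3.55, 3.38 to 3.72), with medians per cell of 3.73 and 0.171 CP10K and UMIs in 26 of 28 and 135 of 260 cells. Ifi27l2a, a small membrane protein gene, had 322 against 11.8 CPM (4.77), with UMIs in 19 and 40 cells. Isg15, a ubiquitin-like tag, had 175 against 25.1 CPM (2.80, 2.54 to 3.06), with UMIs in 20 and 42 cells. Irf7, the factor that amplifies the response, had 76.5 against 4.66 CPM (4.04), with 45 of its 108 irradiated UMIs in 1 cell. At an equal 5000 UMIs Bst2 was seen in 19 of 25 irradiated and 46 of 257 control dividing cells, Ifi27l2a in 13 and 14, Isg15 in 11 and 20, and Irf7 in 3 and 5. Bst2 and Ifi27l2a were thus seen in most irradiated cells at that depth, and Isg15 and Irf7 in fewer.

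The promoter of Isg15 (chr4:156200769-156201068, minus strand, same source and window) is shown as an example of ISRE matches. Capitals mark the ISRE, searched as 2 GAAA runs with any 2 bases between them on either strand, here 3 matches that overlap each other.
Isg15: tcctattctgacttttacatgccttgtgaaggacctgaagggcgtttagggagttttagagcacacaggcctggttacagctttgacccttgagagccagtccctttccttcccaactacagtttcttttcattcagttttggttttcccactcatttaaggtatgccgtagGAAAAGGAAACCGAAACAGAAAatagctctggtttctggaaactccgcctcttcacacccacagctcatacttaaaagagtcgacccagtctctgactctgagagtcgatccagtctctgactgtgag
An ISRE match was found in 12 of 22 promoters of the interferon list (54.5%), not in that of Irf7, in 14.3% of chemokine promoters and in 3.44% of all promoters.

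An irradiated dividing cell, singled out after its values were seen, held most transcripts of several of these genes. It was the only dividing cell with Ifnb1, the gene of interferon beta, and carried 238 Ifnb1 UMIs among 37762. Over all deposited barcodes Ifnb1 was found in 6 irradiated barcodes with 273 UMIs, at most 20 in any other, and in none of the 11369 control barcodes. Against a floor of 3 control UMIs in the dividing cells, Ifnb1 was higher by a log2 ratio of at least 9.05. The cell also held 310 Ifit1 UMIs, against 16 in the other 27 irradiated cells, and 178 of Rsad2, against 4. Of the chemokines it held 652 UMIs of Cxcl10, 482 of Ccl4 and 165 of Ccl5, against 39, 24 and 6. It had 495 CP10K of collagen, 2 Pdgfra and 19 Top2a and Mki67 UMIs, no UMI of Ptprc, Lyz2, Tyrobp or Fcer1g, and a Scrublet score of 0.203. Without it 7 of 8 measured interferon genes were higher, with a median of 2.71, Ifit1 had a log2 ratio of 1.97, Cxcl10 one of 0.21 and Rsad2 one of −0.58. Bst2, Ifi27l2a, Irf7 and Isg15 remained past the limit.

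Class I antigen presentation genes were higher as well. Of 10 measured genes 9 were higher and none lower, with a median of 1.99, and the same count and a median of 1.97 were found in the other mesenchymal cells. H2-K1 and H2-D1, the classical class I heavy chains, had 568 against 121 CPM (2.23, 2.10 to 2.37) and 439 against 81.8 CPM (2.43, 2.27 to 2.58). Their medians per cell were 2.98 against 0.940 CP10K and 2.31 against 0.601 CP10K. H2-Q7 (3.26), H2-T23 (2.07), the light chain gene B2m (2.02) and the immunoproteasome gene Psmb8 (1.97) were higher too, though reads of class I genes may be shared between close paralogs. Psme2, an activator of the proteasome, had 0.56 and was short of the limit. The list summed per cell to medians of 15 and 5.45 CP10K.

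Of 16 measured chemokine and cytokine genes 12 were higher and 1 lower, with a median of 1.49. Without the Ifnb1 cell 7 of 14 were higher and the median was 0.62, so the size of this list rested on that cell. Ccl8, which draws monocytes, had 179 against 14.5 CPM (3.63), with 118 of 253 irradiated UMIs in 1 cell and UMIs in 13 of 28 and 71 of 260 cells. Cxcl14, made by fibroblasts of skin and fascia, had 547 against 113 CPM (2.27, 2.14 to 2.41) and UMIs in 19 and 135 cells. Tnfsf11, which encodes the osteoclast factor RANKL, was the lower member (−0.86). Macrophage genes summed to more in the irradiated dividing cells, as given above, and Fcer1g had 74 of its 118 irradiated UMIs in 1 cell. Under the stricter rule, which limits macrophage transcripts but kept the Ifnb1 cell, 12 of 16 chemokine genes were higher with a median of 1.63. The stricter rule without that cell was not run.

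Complement genes differed less in dividing than in other mesenchymal cells. Of 8 measured 4 were higher, with a median of 0.64, against 8 higher and a median of 1.49 in the other cells. C2 and Cfb, the proteases of the classical and alternative convertases, had 35.4 against 7.31 CPM (2.28) and 166 against 41.1 CPM (2.01). C4b (1.34) and C1ra (0.83) were higher as well, C4b with 0.51 under the stricter rule. C3 and Serping1 were at 0.26 and 0.19 in dividing cells and at 1.39 and 1.20 in the other cells. All 8 were lower in dividing than in other mesenchymal cells in both libraries, where 9.94% and 3.15% of genes were lower in the irradiated and the control library.

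Most measured fascial progenitor genes were higher in irradiated dividing cells, and the summed list was lower there than in the other mesenchymal cells. Of 8 measured genes 7 were higher, with a median of 1.11, against all 8 and a median of 1.96 in the other cells. Leaving out, for each gene, the cell with most of its UMIs in each library left 4 of 8 higher, with a median of 0.57. The Pi16 and Clec3b range held 10.7% of irradiated and 5.77% of control dividing cells. The log2 ratio of these shares was 0.89 (−0.80 to 2.59), a difference not detectable at this number of cells. Ly6a, which encodes Sca-1, had 1116 against 315 CPM (1.82, 1.73 to 1.91), with medians per cell of 7.41 and 2.07 CP10K and UMIs in 26 of 28 and 223 of 260 cells. Ly6c1 had 337 against 64.0 CPM (2.40). Pi16 had 68.0 against 11 CPM (2.63), but from 6 cells, and 57 of its 96 irradiated UMIs lay in 1 cell. Clec3b had 50.3 against 18.2 CPM (1.47) from 5 irradiated cells and −0.17 under the stricter rule, where 3 of 6 measured genes were higher with a median of 0.58. The summed list had medians of 12 and 4.33 CP10K in dividing cells and 32.1 and 5.53 in the other cells. Ly6a and Ly6c1, with UMIs in 26 and 22 of 28 irradiated cells, were the more widespread of the 4 genes named here.

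Genes of the injury-activated fibroblast state moved in the opposite direction. Of 14 measured 7 were lower and 2 higher, with a median of −0.59, and 11 were lower in the other cells (median −1.18). Pdzrn4, a ligase gene with PDZ domains, had 12.8 CPM from 3 irradiated cells and 118 CPM from 87 control cells (−3.21). The ephrin receptor gene Epha3 (32.6 and 188 CPM, −2.53) and the glutamate transporter gene Slc1a3 (19.8 and 105 CPM, −2.40) were lower, and so was the growth factor Mdk (50.3 and 159 CPM, −1.66) with its relative Ptn (−1.46). Ptx3 (0.83), a pentraxin of injured tissue, and Clstn2 (0.78) were the higher members. Per cell the list had medians of 18.3 and 30.0 CP10K, and 7 genes were lower under the stricter rule as well.

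Imprinted growth genes, active in fetal tissue, leaned lower. Of 10 measured 5 were lower and none higher, with a median of −0.51 in dividing cells and −0.97 in the other cells. H19, a fetal noncoding RNA, had 145 against 486 CPM (−1.74, −1.95 to −1.54), with UMIs in 9 of 28 and 176 of 260 cells. Mest had 132 against 413 CPM (−1.65), with UMIs in 12 and 170 cells. Peg3 (−0.94), Grb10 (−0.67, and −0.43 under the stricter rule) and Plagl1 (−0.64) were lower too. A larger share of irradiated than of control cells thus had no H19 UMI at full depth.

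Contractile genes were near equal in dividing cells, with 1 of 16 higher, 1 lower and a median of −0.04. In the other mesenchymal cells 6 were lower and the median was −0.42. Acta2, smooth muscle actin, had 1157 against 1300 CPM in dividing cells (−0.17) and 449 against 900 CPM in the other cells, so that irradiated dividing cells exceeded irradiated other cells by 1.36 and control dividing cells exceeded control other cells by 0.53 on the log2 scale. Vim, the filament of mesenchymal cells, was the higher member (3721 and 2446 CPM, 0.61) and Itga11, a collagen receptor subunit, the lower (28.4 and 60.3 CPM, −1.09). The near equality rested on which cells were kept: under the stricter rule 4 of 15 contractile genes were lower and none higher, and Acta2 had a log2 ratio of −1.29.

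Several skeletal genes were lower, among few that were measured. Of 7 measured chondrogenic genes 3 were lower and none higher: the transcription factor Sox6 (24.1 and 61.9 CPM, −1.36), the fibril collagen Col11a1 (544 and 824 CPM, −0.60) and the cartilage matrix gene Comp (82.2 and 124 CPM, −0.60). Of all genes 7.26% were lower. Without the Ifnb1 cell 1 of 7 was lower, and the same count was found with ratios centred on their median. The list median was −0.43, and −0.06 under the stricter rule, where 3 of 7 were lower. Sox9, the master factor of cartilage, had 85.1 against 97.9 CPM (−0.20, −0.49 to 0.07), and Col2a1 was below the expression minimum with 1 and 51 UMIs. Runx2, which directs bone and hypertrophic cartilage fates, had 104 against 174 CPM (−0.74, −0.99 to −0.50), with medians per cell of 0.699 and 1.18 CP10K. Its ratio in the other mesenchymal cells was −0.73. Mef2c, which acts with Runx2 in cartilage, was lower (31.2 and 61.9 CPM, −0.99), and Twist2, an inhibitor of Runx2, was higher (143 and 52.3 CPM, 1.45), while Twist1 was at 0.31. The osteogenic list had 5 measured of 19 members, with 1 higher and 2 lower, or 1 and 3 under the stricter rule.

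In the tendon list 4 of 10 genes were higher and 1 lower, but few irradiated cells carried them. Wif1 came from 3 cells, Kera from 6, and 140 of 198 Tppp3 UMIs lay in 1 cell. The tendon factor Scx (−0.01) and the tendon membrane gene Tnmd (−0.09) were equal, and under the stricter rule the list median was −0.16.

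Most collagen genes were alike. Of 19 measured 4 were higher and none lower, with a median of 0.07, and Col1a1 had 16052 against 15274 CPM (0.07). Col1a1, Col1a2 and Col3a1 also chose the cells, so their values are descriptions. The higher genes were Col15a1 (69.5 and 24.7 CPM, 1.49), Col4a1 (253 and 133 CPM, 0.92), Col4a2 (0.88) and Col18a1 (0.74). Of the 357 irradiated Col4a1 UMIs 188 lay in 1 cell, and none of 18 collagens was higher under the stricter rule, with Col15a1 at −0.19. Among 23 matrix glycoproteins the fibrillin Fbn2 (153 and 336 CPM, −1.13), Aspn, a small proteoglycan (455 and 885 CPM, −0.96, and −0.52 under the stricter rule), Postn (−0.85) and Ogn (−0.80) were lower. Prelp (1.18) and Eln (1.28) were among the 4 higher, with 119 of 172 elastin UMIs in 1 cell. Of 19 matrix enzymes and inhibitors 7 were higher and 1 lower, or 3 and none under the stricter rule, with medians of 0.19 and 0.031. Adamts5, an aggrecan-cleaving protease, had 148 against 53.7 CPM (1.46) with UMIs in 21 of 28 and 140 of 260 cells. Timp3 (377 and 150 CPM, 1.33) and Mmp3 (693 and 231 CPM, 1.59) were near equal or lower under the stricter rule, at −0.04 and −0.42, and Mmp13, a collagenase of hypertrophic cartilage, was lower (−0.99).

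Of 16 growth factor receptors 4 were lower and none higher. Egfr had 179 against 280 CPM (−0.64, −0.83 to −0.46) with UMIs in 26 of 28 and 247 of 260 cells, and 0.18 in the other mesenchymal cells. The activin receptor gene Acvr2a (44.7 and 91.2 CPM, −1.03), the insulin receptor gene Insr (−0.93) and the BMP receptor gene Bmpr1a (86.5 and 131 CPM, −0.59, and −0.43 under the stricter rule) were the others. Of 13 growth factors 4 were higher and 1 lower, or 4 and 3 under the stricter rule. Vegfa, the main angiogenic factor, had 101 against 36 CPM (1.49, 1.20 to 1.78) with UMIs in 21 of 28 and 128 of 260 cells. Igf1 was the lower one (269 and 488 CPM, −0.86).

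**Figure D5:**
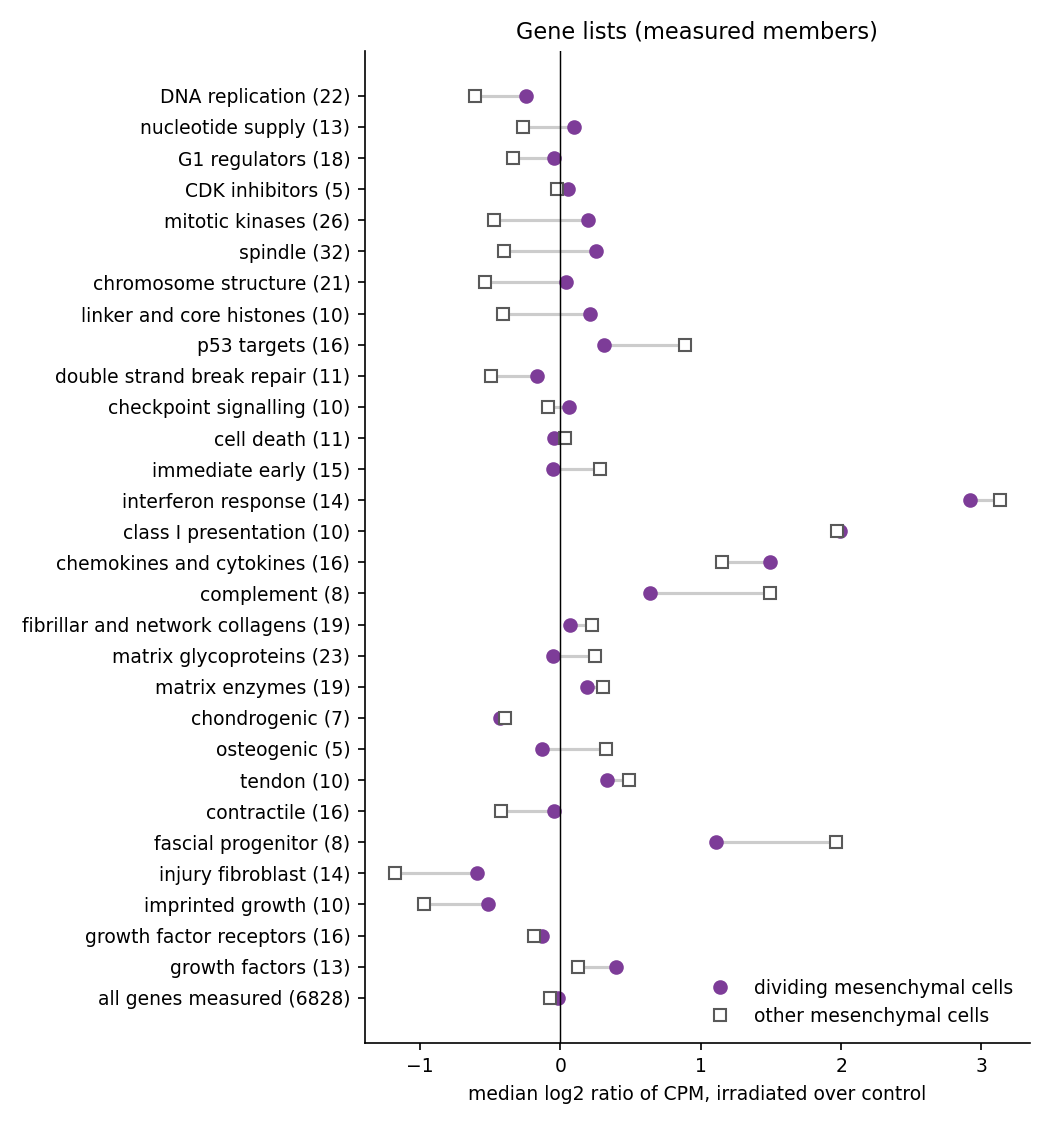
Median log2 ratio of CPM, irradiated over control, of the measured members of each gene list in dividing mesenchymal cells (filled circles) and other mesenchymal cells (open squares), with the number of measured members in parentheses. The interferon list lies farthest to the right at 2.92 and 3.13, while the spindle and mitotic kinase lists lie right of 0 in dividing cells and left of 0 in the other cells.

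The 12 highest ratios among genes with a mean of at least 50 CPM were those of Ifnb1, Ccl5, Ifit1, Ccl4, Rsad2, Ifi27l2a, Cxcl10, Ccl8, Bst2, Tafa1, Isg15 and Lgals3bp. Lgals3bp, a secreted galectin ligand, had 133 against 20.6 CPM (2.69) with UMIs in 25 of 28 and 112 of 260 cells. Tafa1 had 184 against 18.9 CPM from 5 irradiated cells, with 141 of 259 UMIs in 1. Among the 12 lowest were Pdzrn4, Epha3, Slc1a3, H19, Mdk and Mest, described above, and Fabp4, a fatty acid carrier (58.1 and 225 CPM, −1.95). The other 5 were Krt1 (−5.07), Calm4 (−4.49), Lgals7 (−3.71), Krt10 (−3.57) and Krt14 (−2.19), genes of keratinocytes. In 1 control cell lay 803 of 2243 Krt1 UMIs, 1684 of 3968 Krt10 UMIs, 812 of 1355 Calm4 UMIs and 863 of 2099 Lgals7 UMIs. The part of keratinocyte RNA in these 5 ratios was not tested.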

How the data were processed

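The authors deposited raw UMI counts per gene and barcode for 2 libraries of the 10x 3' v3 chemistry, made with Cell Ranger 5.0.1 per the file headers and mm10 per the submitters' processing notes. Further filters are not given in the sources used here. The files list 32285 features, and Mx1 and Mx2 are not used here. The members and the 41 gene lists, 12 of them for other cell types, were chosen with earlier results of these data known, and 673 of 675 list members were in the files.

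Cells were selected by the rule in the text. UMIs of the dividing cells were summed per library and scaled to a total of 1000000 (CPM), and 20224 genes had a UMI there. A log2 ratio was irradiated over control with an exact conditional Poisson interval of 95%, and a library at 0 was set to a floor of 3 counts. Genes with a mean of at least 20 CPM were called measured, and 1.5-fold was the rule of size. Dividing over other mesenchymal cells used a pseudocount of 1 CPM. Shares have Clopper-Pearson intervals and their ratios Katz intervals. Named genes were 14 fixed ones, up to 4 measured members of each list with the widest ratios, the 12 highest and 12 lowest at 50 CPM or more, and the 2 most abundant members of each list of another cell type. Further list members were chosen after their values were seen. Some genes that this rule names are not reported here. Doublets were not removed in the main values, and a Scrublet score of at least 0.25 was an alternative. The stricter rule required no Ptprc and no Rgs5 UMI, less than 5 CP10K of Lyz2, Tyrobp and Fcer1g, less than 2 of Krt5 and Krt14 and less than 1 of Pecam1 and Cdh5. Python 3.11.15, numpy 2.4.6, scipy 1.17.1, pandas 2.3.3, scanpy 1.11.5, anndata 0.12.19 and matplotlib 3.10.9 were used, and the ratio code was tested on simulated data.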

Additional observations from a re-analysis of the deposited data

Results flagged for a closer look

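A set of 4 genes differed between dividing and other mesenchymal cells in opposite directions in the 2 libraries, each by at least 1.5-fold, and the difference was not tested because there is 1 library per group. The log2 ratio of dividing over other cells for Ccnd1, the G1 cyclin, was −0.79 in the irradiated library and 0.77 in the control library. For Ifit1 it was 1.02 in the irradiated library, where 310 of 326 UMIs lay in 1 cell, and −1.37 in the control library. For the globin genes Hbb-bs and Hbb-bt it was −5.47 and −3.92 in the irradiated library and 2.35 and 3.96 in the control library, where 1 cell held 675 of 848 Hbb-bs and 277 of 285 Hbb-bt UMIs.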

How the results depend on the processing

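No paired analysis was possible because there is 1 library per group, and no replicate could be left out. The lower dividing share kept its direction under every alternative run. Its log2 ratio ran from −1.38 under the stricter rule to −0.95 at 4 CP10K, and was −0.51 with states weighted alike. Counted as at least 2 UMIs of Top2a and Mki67 at 2000 UMIs per cell, it was −0.85, with an interval of −1.75 to 0.04. The log2 ratio of the replication-leaning share ran from −1.71 to 0.31 over its alternatives. Leaving out barcodes with a Scrublet score of at least 0.25 dropped no irradiated dividing cell, yet the irradiated share was 16% instead of 12%. Part of that range is thus the random draw of the thinning. The count of higher genes was 761 with cells weighted alike. The higher and lower counts were 1217 and 1381 with cells thinned to 5000 UMIs, 655 and 863 at 10 CPM, 199 and 207 at 50 CPM, and 156 and 117 at 2-fold. Of 377 list medians under alternatives 28 had the opposite sign to the reported value, 2 of them for medians of at least 0.292 in size, and of 1854 ratios of named genes 68 did, 23 of them for ratios of at least 1.5-fold. Among these larger values the sign turned under the stricter rule for the tendon median (−0.16), Aurka (−0.13), Col15a1 (−0.19), Mmp3 (−0.42), Timp3 (−0.041), Clec3b (−0.17), Lyz2 (−2.04), Fcer1g (−0.68), Trbc2 (0.21), Hbb-bt (1.51) and Acp5 (−0.44). Thinned sums, from 25 irradiated cells of 5000 UMIs each, hold few UMIs of most genes, so their ratios are loose. Thinning turned the growth factor median (−0.20), Mdm2 (−0.34), Mcm3 (0.11), Birc3 (−1.47), Trbc2 (0.040) and Cd74 (−1.50). Others were Pecam1 at 4 CP10K (0.18), Hbb-bt at 5% mitochondrial UMIs (0.74), Col4a1 (−0.013) and Flt1 (−4.03) at 100 CP10K of collagen, and Cd74 with cells weighted alike (−0.42). Of the 2 alternatives chosen after seeing the data, leaving out the Ifnb1 cell turned Rsad2 (−0.58), and keeping only cells of at least 36612.5 UMIs turned Eln (−0.084) and Hbb-bt (0.85). The cause of these changes was not tested. With 28 irradiated cells the depth of their sum limits each gene's ratio.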
